A study of Homo sapiens with 12 samples.

Results

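The data are the RNA response of HEK 293T cells at 24 h of exposure to PDP, set against the DMSO control that serves every time point of the series. The members are the genes of the 24 h table that the authors' test marked as testable (status OK) and whose geometric mean FPKM over both conditions was at least 1. They number 13719 of 58083 gene IDs, and 15385 IDs had status OK before the FPKM minimum. HEK 293T was derived from human embryonic kidney and expresses SV40 large T antigen. The treated group is HEK 293T with 1 µM PDP, a compound known here by its code name, for 24 h (2 libraries). The control is HEK 293T with DMSO, the solvent, for 3 h (2 libraries). PDP groups at 3 h and 72 h (2 libraries each) are used beside them, and the series also holds a pull-down of G-quadruplexes from purified and annealed genomic DNA with its input, in 12 samples and 6 groups in all. All cells were of 1 line in the same medium, and the labels do not say whether the 2 libraries of a group came from separate cultures.

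Control values in the 24 h table equalled those of the 3 h table times a constant of 1.04 (SD 0.000842 on the log2 scale, 13455 genes), so the 24 h group has no DMSO group of its own time in this comparison. Change with PDP and change over the further time in culture cannot be told apart. Each condition has 1 FPKM value per gene, pooled by the authors over its libraries. FPKM is a fragment count scaled for transcript length and library size. No library can be seen on its own, no SD can be given and the depth is unknown. Log2 fold changes are PDP over control, and each SE is the log2 fold change divided by the test statistic that the authors deposited. A gene is called here when the authors' deposited table gives it a q-value under 0.05.

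Markers of the line were present in both conditions. Of 14 marker genes of HEK 293T, 13 reached 1 FPKM with PDP and 12 in the control, with sums of 564 and 492 FPKM. None of 8 hepatocyte markers reached 1 FPKM in either condition. Of 12 blood and immune markers, 3 reached 1 FPKM with PDP and none in the control (sums 6.70 and 2.96 FPKM). The highest value was 2.59 FPKM with PDP and 0.873 in the control, and CD3D, MS4A1 and HBB were listed at 0 in both. Of 11 fibroblast and endothelial markers, 3 reached 1 FPKM in each condition (sums 27.7 and 16.5 FPKM). The highest value, 22.8 FPKM with PDP and 13.0 in the control, made up most of each sum. COL1A2, PECAM1 and CDH5 were listed at 0 in both.

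G-quadruplexes are stacked structures that guanine-rich strands can fold into, and many promoters of growth genes hold sequences able to form them. Small molecules that bind such structures are used to ask which genes respond when the structures are held in place. Cells answer many stresses by adjusting the genes for RNA processing and ribosome assembly, which make up much of the transcription of a dividing cell, and through factors such as HIF, which switches on genes for low oxygen.

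With PDP at 24 h genes rose and fell in numbers that depended on the FPKM minimum. In the authors' deposited table, 1270 members were called higher (9.26% of the 13719) and 1256 lower (9.16%), 18.4% in either direction, and the median log2 fold change of all members was -0.03 (SD 0.596). The genes that rose were of lower expression and changed by more. Genes called higher had a median of 7.59 FPKM with PDP and 3.70 FPKM in the control, and a median log2 fold change of 0.98. Genes called lower had medians of 20.9 FPKM with PDP and 33.5 FPKM in the control, and a median change of -0.65. With an FPKM minimum of 5 in place of 1, 664 were called higher and 1192 lower. A change of at least 1 on the log2 scale was reached by 606 of the 1270 higher and 145 of the 1256 lower calls. Another 486 members changed by as much without a call, with a median SE of 1.35 against 0.37 over all members. The smallest called changes were 0.36 and -0.36. Just outside the FPKM minimum lay CABP1, with 1.01 FPKM with PDP and 0.987 in the control, and just inside lay IKZF2, with 0.994 FPKM with PDP and 1.01 in the control.

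**Figure D1:**
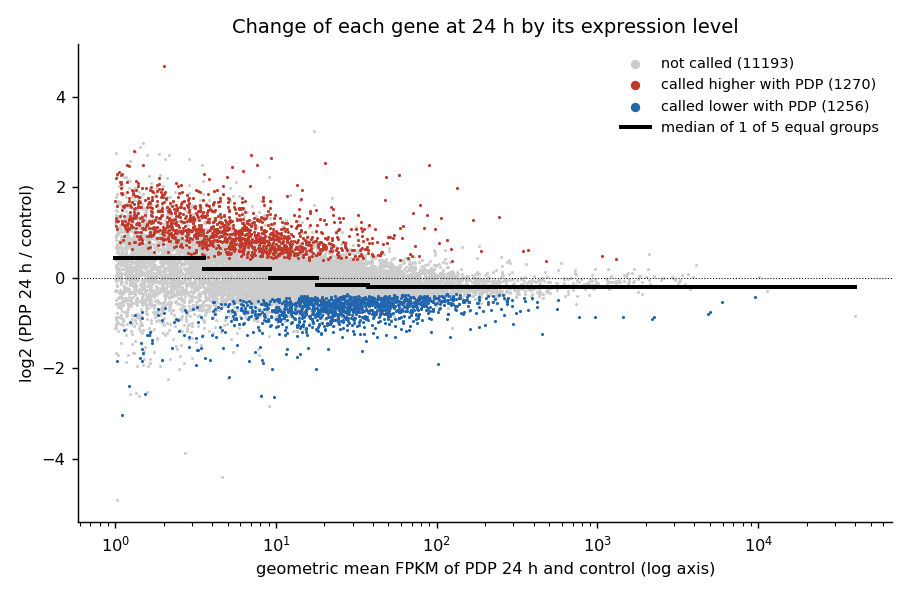
Each point is 1 of 13719 genes, with the geometric mean FPKM of both conditions on the x axis (log scale) and the log2 ratio of PDP at 24 h to control on the y axis. Red and blue points are the 1270 and 1256 genes called higher and lower in the authors' deposited table, grey points are not called, and black bars are the medians of 5 equal groups by level, which step down from 0.43 to -0.21.

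The direction of change went with the level of expression. When members were split into 5 equal groups by geometric mean FPKM, the lowest group (1.00 to 3.54 FPKM) had a median log2 fold change of 0.43, the next 0.20, the third -0.02, the fourth -0.15 and the highest (over 37.4 FPKM) -0.21. In the lowest group 16.4% of genes were called higher and 1.64% lower, and in the highest 1.86% were called higher and 16.7% lower. The order was the same when the groups were set by the FPKM of the PDP 3 h libraries, which take no part in the 24 h fold change, with medians of 0.44, 0.19, -0.04, -0.18 and -0.24 from lowest to highest. With PDP at 3 h the groups spanned 0.05 to -0.03. With PDP at 72 h they had medians of 0.38, 0.16, 0.05, 0.01 and 0.09. These comparisons share their control. Because of this slope, many lists of genes below are given with their median and with their median relative to genes of like level. For the latter, the median of 1 of 20 FPKM bins was subtracted from each gene. The highest bin reaches 40282 FPKM, so it matches the level of the most abundant genes only coarsely. Scaling both conditions to the same FPKM sum (621454 with PDP and 698494 in the control) would add 0.17 to every log2 fold change, and changes are given here without it.

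**Figure D2:**
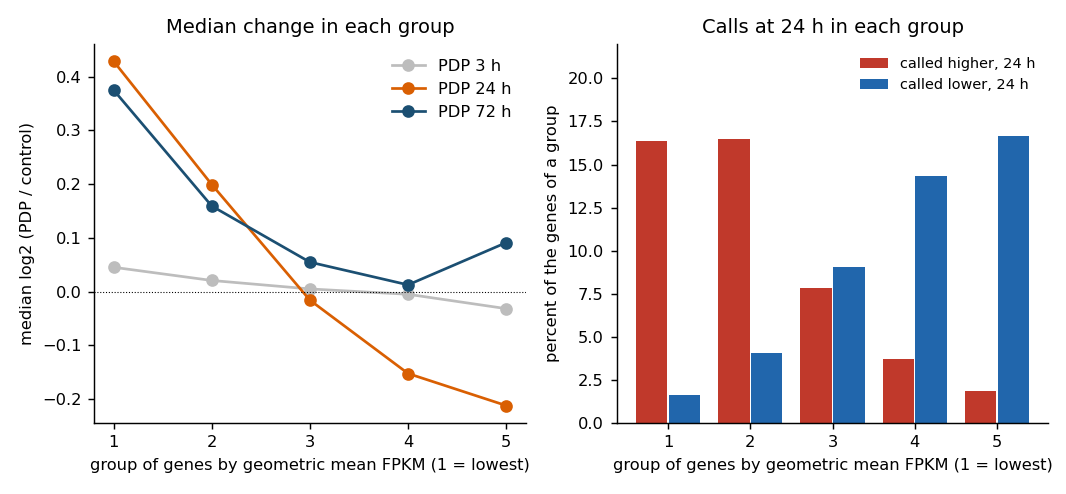
The left panel shows the median log2 ratio of PDP to control in each of 5 equal groups of genes by geometric mean FPKM at 3 h, 24 h and 72 h. The right panel shows the percent of genes of each group that the authors' deposited table called higher (red) or lower (blue) at 24 h. At 24 h the medians step down from 0.43 in the lowest group to -0.21 in the highest, and higher calls give way to lower ones.

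Among genes that reached 5 FPKM, the largest called increase was that of the noncoding RNA LINC00173 (10.1 FPKM with PDP at 24 h and 0.394 FPKM in the control, log2 fold change 4.68 (SE 1.48)). MIR210HG, the host transcript of the hypoxia microRNA miR-210, had 17.7 FPKM with PDP against 2.72 FPKM in the control (log2 fold change 2.70, SE 0.60). CXCR4, the receptor of the chemokine CXCL12, had 23.2 FPKM with PDP against 3.72 FPKM in the control (log2 fold change 2.64, SE 0.32). The receptor genes GIPR, for the incretin hormone GIP, and IL4R, for interleukin 4, had 12.3 against 2.28 FPKM and 14.1 against 2.76 FPKM (PDP against control), with log2 fold changes of 2.44 (SE 0.67) and 2.36 (SE 0.57). Increases thus included cell surface receptors of unrelated ligands, each from a control level under 4 FPKM.

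ANKRD10 stood out for its level. This ankyrin repeat gene (ENSG00000088448.14, chromosome 13, 110878540 to 110915069 on GRCh38.p7) had 213 FPKM with PDP against 37.8 FPKM in the control (log2 fold change 2.49, SE 0.24). It had 37.5 FPKM with PDP at 3 h against 36.4 in the control, and 42.8 FPKM at 72 h against 35.2, with no call at either time in the authors' deposited tables, which called 0.112% of genes at 3 h and 33.8% at 72 h. The high value was thus seen in the 24 h group alone of the 3 PDP groups, and whether both of its libraries carry it was not tested, since the value is pooled. The gains in FPKM that were larger than that of ANKRD10 included LDHA, lactate dehydrogenase, with 1506 FPKM with PDP against 1136 FPKM in the control (log2 fold change 0.41, SE 0.20), and TSC22D3, which encodes the glucocorticoid-induced leucine zipper protein, with 387 FPKM with PDP against 154 FPKM in the control (log2 fold change 1.33, SE 0.27). DDIT4, an inhibitor of mTORC1 signalling, had 267 FPKM with PDP against 67.3 FPKM in the control (log2 fold change 1.99, SE 0.21).

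The 12 largest decreases included a transcription factor, a coregulator and a splicing factor. ATF5, a stress-responsive transcription factor, had 3.89 FPKM with PDP against 24.2 FPKM in the control (log2 fold change -2.64, SE 1.20). NCOA5, a nuclear receptor coregulator (ENSG00000124160.11, chromosome 20, 46060985 to 46089952), had 8.81 FPKM with PDP against 35.9 FPKM in the control (log2 fold change -2.03, SE 0.22). SRSF6, a splicing factor of the SR family (ENSG00000124193.14, chromosome 20, 43457928 to 43464247), had 52.8 FPKM with PDP against 197 FPKM in the control (log2 fold change -1.90, SE 0.20). The last 2 had the smallest SE among the 12 largest decreases and were read at FPKM well above the minimum. FAM222A (1.62 against 6.20 FPKM), the tRNA methyltransferase gene TRMO (4.35 against 16.1 FPKM), LANCL2 (3.58 against 12.7 FPKM) and CYP27B1 (4.31 against 15.3 FPKM), which makes the active form of vitamin D, were also among these 12, each given with PDP first and control second. The 2 highest lower shares among the autosomes and X were 15.3% of 360 members on chromosome 20 and 13.7% of 241 on chromosome 13. They were picked as the highest, and 9.16% of all members were called lower. On chromosome 20, 10.3% were called higher, against 9.26% of all members. No test was made of these shares.

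SR proteins bind exons and recruit the spliceosome, and most of their genes fell. Of 14 genes measured, the authors' deposited table called 11 lower and none higher, with a median of -0.71 (-0.52 relative to genes of like level). Beside SRSF6, TRA2B had 127 FPKM with PDP against 268 FPKM in the control (log2 fold change -1.08, SE 0.24), SRSF7 139 FPKM with PDP against 287 FPKM in the control (log2 fold change -1.05, SE 0.21) and SRSF8 7.59 FPKM with PDP against 15.5 FPKM in the control (log2 fold change -1.03, SE 0.22). The core spliceosome list had 11 lower and no higher calls among 40 genes, with a median of -0.32 (-0.11 relative to level). SF3B4, a subunit of the complex that binds the branch point, had 31.8 FPKM with PDP against 61.8 FPKM in the control (log2 fold change -0.96, SE 0.21), and SF1, which recognises the branch point first, had 89.0 FPKM with PDP against 156 FPKM in the control (log2 fold change -0.81, SE 0.30). Genes of hnRNP proteins, which coat nascent RNA, had 6 lower calls among 26, with HNRNPF at 147 against 231 FPKM with PDP and in the control.

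Transcripts of genes of nuclear RNA bodies changed in both directions. In the list of nuclear speckle and paraspeckle genes (10 measured, median -0.23, -0.03 relative to level), the paraspeckle protein gene SFPQ fell, with 164 FPKM with PDP against 322 FPKM in the control (log2 fold change -0.97, SE 0.31). The noncoding RNAs NEAT1, the scaffold of paraspeckles, and MALAT1, an RNA found in speckles, rose. NEAT1 had 49.6 FPKM with PDP against 23.1 FPKM in the control (log2 fold change 1.10, SE 0.56) and MALAT1 27.4 FPKM with PDP against 13.7 FPKM in the control (log2 fold change 1.00, SE 0.42). In all 4 of 10 genes were called lower and 2, both noncoding RNAs, higher, and the other 4 were not called.

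Calls among genes of nuclear export and import were lower ones alone. Nuclear pore and transport genes had 11 lower and no higher calls among 42, and a median of -0.35 (-0.16 relative to level). NXF1, the main carrier of mRNA through the pore, had 22.2 FPKM with PDP against 58.9 FPKM in the control (log2 fold change -1.40, SE 0.38), and its partner NXT1 had 16.6 FPKM with PDP against 29.9 FPKM in the control (log2 fold change -0.85, SE 0.24). KPNA2, an importin alpha, had 134 against 231 FPKM, and the nucleoporin gene NUP50 had 40.5 against 70.1 FPKM, with PDP and in the control.

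Ribosome assembly factors, which process rRNA and build the subunits, had the most lower calls of any list. Of 51 measured, 29 were called lower and none higher in the authors' deposited table, every log2 fold change was below 0 (-1.25 to -0.01), and the median was -0.50 (-0.30 relative to level). UTP14A, of the small subunit processome, had 19.9 FPKM with PDP against 47.4 FPKM in the control (log2 fold change -1.25, SE 0.21), and RRS1, a large subunit factor, had 21.5 FPKM with PDP against 51.2 FPKM in the control (log2 fold change -1.25, SE 0.21). NIP7 had 28.0 against 61.0 FPKM and PPAN 47.3 against 98.7 FPKM, with PDP and in the control. Subunits of RNA polymerases I and III, which make rRNA and tRNA, had 8 lower calls among 28 and a median of -0.45 (-0.28 relative to level). CD3EAP, a subunit of polymerase I, had 12.1 FPKM with PDP against 27.4 FPKM in the control (log2 fold change -1.18, SE 0.35), and POLR3C, of polymerase III, had 12.8 FPKM with PDP against 26.6 FPKM in the control (log2 fold change -1.05, SE 0.23).

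The ribosomal proteins themselves had no call. None of 78 measured genes was called, and log2 fold changes ran from -0.28 to 0.19 with a median of -0.09. Relative to the highest of the 20 FPKM bins the median was 0.10, of the other sign. That bin also takes in lists of far lower level, such as SR genes (median 188 FPKM against 1175 FPKM for ribosomal proteins). The value is thus not relative to genes of like level. RPL39 had 3788 FPKM with PDP at 24 h and 4367 FPKM in the control (log2 fold change -0.21 (SE 0.19)), and RPS27 had 3470.2 FPKM with PDP at 24 h and 4129 FPKM in the control (-0.25 (SE 0.19)). Ribosomal proteins of the mitochondrion differed, with 14 of 58 called lower and none higher (median -0.35, -0.15 relative to level), led by MRPL15 with 44.8 FPKM with PDP against 100.1 FPKM in the control (log2 fold change -1.16, SE 0.22). Translation factors had 7 lower and 1 higher calls among 47. The lower share was 14.9%, against 9.16% of all members and 16.7% in the highest of the 5 groups by level. The initiation factor genes EIF4G2 and EIF3J had 199 against 349.8 FPKM and 56.0 against 98.5 FPKM, and EEF2K, the kinase that slows elongation, rose with 14.6 FPKM with PDP against 9.38 FPKM in the control (log2 fold change 0.64, SE 0.32).

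Called regulators of transcription elongation were all lower. MEPCE, which caps and stabilises the 7SK RNA that holds P-TEFb inactive, had 19.6 FPKM with PDP against 60.1 FPKM in the control (log2 fold change -1.62, SE 0.22). HEXIM1, the protein through which 7SK inhibits P-TEFb, had 16.7 FPKM with PDP against 32.2 FPKM in the control (log2 fold change -0.95, SE 0.21). Of 14 genes in the list of BET proteins and P-TEFb, these and CCNT2, a cyclin of P-TEFb (14.8 against 20.2 FPKM), were the 3 called, all lower. They were 21.4% of the list, against 9.16% of all members called lower, and the list's median was -0.17 (-0.14 relative to level). Subunits of RNA polymerase II and its general factors had 7 lower calls among 28, none beyond -0.57. Mediator genes had 5 lower and 1 higher calls among 32. The lower share was 15.6%, against 9.16% of all members and 14.4% in the fourth of the 5 groups by level.

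Chromatin genes split by member. CREBBP and EP300, the paired acetyltransferases of enhancers, had 9.0 FPKM with PDP against 17.7 FPKM in the control (log2 fold change -0.98, SE 0.53) and 19.0 FPKM with PDP against 33.0 FPKM in the control (log2 fold change -0.80, SE 0.52). SETD1B and SETD1A, which methylate histone H3 at active promoters, had 3.78 FPKM with PDP against 7.85 FPKM in the control (log2 fold change -1.05, SE 0.21) and 14.1 FPKM with PDP against 22.6 FPKM in the control (log2 fold change -0.68, SE 0.21). EZH1, a Polycomb methyltransferase, and KMT5C, which methylates histone H4, rose, with 22.1 FPKM with PDP against 12.3 FPKM in the control (log2 fold change 0.85, SE 0.43) and 27.0 FPKM with PDP against 13.3 FPKM in the control (log2 fold change 1.02, SE 0.30). The deacetylase gene HDAC7 had 13.7 FPKM with PDP against 7.11 FPKM in the control (log2 fold change 0.95, SE 0.58). Over the list of lysine methyltransferases and demethylases, 8 of 38 were called lower (21.1%) and 4 higher (10.5%), against 9.16% and 9.26% of all members. HOX genes, which set position along the body axis, had 5 lower and 4 higher calls among 35. These shares, 14.3% and 11.4%, were near the 9.16% and 9.26% of all members. HOXA13 rose with 13.0 FPKM with PDP against 7.06 FPKM in the control (log2 fold change 0.88, SE 0.25), and HOXD11 fell with 17.9 FPKM with PDP against 30.5 FPKM in the control (log2 fold change -0.77, SE 0.37).

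Called genes of the hypoxia and glycolysis lists were all higher. Of 23 measured HIF targets outside glycolysis, 16 were called higher and none lower, with a median of 0.63 (0.74 relative to level). ANKRD37, a direct target of HIF, had 18.1 FPKM with PDP against 3.22 FPKM in the control (log2 fold change 2.49, SE 0.71), HILPDA, which blocks lipid breakdown in droplets, 128 FPKM with PDP against 26.5 FPKM in the control (log2 fold change 2.27, SE 0.42), and PPFIA4, a liprin, 27.3 FPKM with PDP against 6.64 FPKM in the control (log2 fold change 2.04, SE 0.48). Glycolytic genes had 4 higher and no lower calls among 20, with a median of 0.26 (0.42 relative to level). PFKFB4, which sets the allosteric activator of phosphofructokinase, had 16.0 FPKM with PDP against 6.12 FPKM in the control (log2 fold change 1.38, SE 0.37), and the hexokinase genes HK1 and HK2 had 45.4 against 31.1 FPKM and 54.0 against 37.2 FPKM. Values at 72 h lay further from the control: ANKRD37 had 166 FPKM with PDP against 3.00 in the control, and HILPDA 748 against 24.7.

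The sterol list held changes in both directions. INSIG1, the retention protein that senses sterols and is itself induced by SREBP2, had 261 FPKM with PDP against 108 FPKM in the control (log2 fold change 1.27, SE 0.21). HMGCS1, an early enzyme of the pathway, and HSD17B7, a late one, rose, with 81.8 FPKM with PDP against 57.2 FPKM in the control (log2 fold change 0.52, SE 0.24) and 17.2 FPKM with PDP against 9.76 FPKM in the control (log2 fold change 0.81, SE 0.37). CYP51A1, a demethylase between them, fell, with 50.9 FPKM with PDP against 74.3 FPKM in the control (log2 fold change -0.55, SE 0.20). In all 3 of 23 genes were called higher (13.0%) and 4 lower (17.4%), against 9.26% and 9.16% of all members. The highest of the 5 groups by level, where the list's median of 53.1 FPKM lies, had 16.7% called lower. The median change of the list was -0.02 (0.19 relative to level). Genes of pyrimidine and purine synthesis had 3 lower calls among 25 (12%, against 9.16% of all members) and a median of -0.25 (-0.09 relative to level). UMPS, which completes UMP, had 33.6 FPKM with PDP against 67.6 FPKM in the control (log2 fold change -1.01, SE 0.30).

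Genes of the Notch pathway and of the ID and HES repressors rose or were not called. In the list of ID, HES, HEY and Notch genes, 9 of 18 were called higher and none lower, no log2 fold change was below 0, and the median was 0.41 (0.57 relative to level). The Notch ligand genes DLL1 and JAG1 had 8.71 FPKM with PDP against 2.94 FPKM in the control (log2 fold change 1.57, SE 0.70) and 4.85 FPKM with PDP against 1.72 FPKM in the control (log2 fold change 1.50, SE 0.61). HES7, a repressor of the segmentation clock, had 3.44 FPKM with PDP against 0.495 FPKM in the control (log2 fold change 2.80, SE 0.85), and ID1, an inhibitor of basic helix-loop-helix factors, had 21.4 FPKM with PDP against 11.4 FPKM in the control (log2 fold change 0.91, SE 0.27). Of 13 intermediate filament and lamin genes 4 were called higher and 1 lower, and those of neurons and progenitors rose: NEFM had 87.0 FPKM with PDP against 40.6 FPKM in the control (log2 fold change 1.10, SE 0.24), NEFL 48.7 FPKM with PDP against 24.0 FPKM in the control (log2 fold change 1.02, SE 0.24) and NES, nestin, 6.22 FPKM with PDP against 2.93 FPKM in the control (log2 fold change 1.08, SE 0.22). This line is known to carry neuronal filament transcripts, and both neurofilament genes were above 20 FPKM in the control too.

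Immediate early genes, which respond to stimuli within minutes, had 7 higher and 1 lower calls among 21 and a median of 0.47, or 0.17 relative to genes of like level. MAFF, FOS and IER3 had 3.22 against 0.845 FPKM, 3.78 against 1.13 FPKM and 15.6 against 5.33 FPKM, with PDP and in the control, and ATF3 had 38.8 FPKM with PDP against 15.6 FPKM in the control (log2 fold change 1.31, SE 0.23). The lower call was SRF, the serum response factor, with 15.7 FPKM with PDP against 26.6 FPKM in the control (log2 fold change -0.76, SE 0.20). Targets of ATF4, the integrated stress factor, were called higher for 5 of 19 and lower for 1, ATF5. These were 26.3% and 5.26%, and 2 higher calls were left at a q under 0.01. DDIT4, the largest of the higher calls, is also in the list of HIF targets. Heat shock chaperones had 3 higher and 7 lower calls among 26 (11.5% and 26.9%, against 9.26% and 9.16% of all members). DNAJA1, a co-chaperone, had 60.5 FPKM with PDP against 138 FPKM in the control (log2 fold change -1.19, SE 0.20). HSPA1A had 48.3 against 8.40 FPKM and HSPA1B 169 against 67.4 FPKM, but these near-identical copies share reads and their separate values are uncertain.

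The lists of licensing, replication fork and mitotic regulator genes had lower calls alone. Replication licensing genes had 8 lower calls among 18 (median -0.39, -0.20 relative to level), fork genes 10 among 33 (-0.21, -0.05 relative to level) and mitotic regulators 10 among 28 (-0.31, -0.13 relative to level), with none higher in any of the 3. GMNN, geminin, which blocks licensing, had 88.8 FPKM with PDP against 155 FPKM in the control (log2 fold change -0.81, SE 0.22), CDC6, which loads the helicase, 35.6 FPKM with PDP against 61.8 FPKM in the control (log2 fold change -0.80, SE 0.28), and GINS3, of the helicase itself, 16.9 FPKM with PDP against 36.9 FPKM in the control (log2 fold change -1.13, SE 0.23). MIS12, a kinetochore anchor, had 15.0 FPKM with PDP against 34.7 FPKM in the control (log2 fold change -1.21, SE 0.26). Of cell cycle inhibitors, CDKN1C rose with 6.78 FPKM with PDP against 3.41 FPKM in the control (log2 fold change 0.99, SE 0.38). Targets of p53 were called in both directions, 4 higher and 3 lower among 26 (15.4% and 11.5%, against 9.26% and 9.16% of all members). DDB2, a damage sensor, had 13.4 FPKM with PDP against 6.25 FPKM in the control (log2 fold change 1.10, SE 0.36), and TIGAR had 8.27 FPKM with PDP against 13.7 FPKM in the control (log2 fold change -0.73, SE 0.26). In this line large T antigen binds p53, so the list is a limited gauge of p53 here.

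Transcripts of the mitochondrial genome made up 13.2% of all FPKM with PDP and 17.8% in the control. Of 13 measured, 8 were called lower and none higher, with a median of -0.76. Relative to the highest of the 20 FPKM bins it was -0.57, a coarse match for a list with a median of 5037 FPKM. MT-ND6, encoded on the light strand, had 293 FPKM with PDP against 698 FPKM in the control (log2 fold change -1.25, SE 0.20), and MT-ND2 had 1577 FPKM with PDP against 2994 FPKM in the control (log2 fold change -0.92, SE 0.19). Nuclear genes of the respiratory chain had 3 lower calls among 58 (5.17%, against 9.16% of all members) and a median of -0.17 (0.03 relative to level).

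Of the lists of protein upkeep and cell survival given here, the proteasome had lower calls alone and the others had calls in both directions. Proteasome subunits had 8 lower calls among 31 and a median of -0.32 (-0.11 relative to level), with PSMD12, of the lid, at 42.8 FPKM with PDP against 65.9 FPKM in the control (log2 fold change -0.62, SE 0.24). Of 24 ER chaperones and sensors 1 was called higher and 3 lower, among them XBP1, a factor of the unfolded protein response, with 58.9 FPKM with PDP against 95.9 FPKM in the control (log2 fold change -0.70, SE 0.20). Of 23 NRF2 and antioxidant genes 1 was called in each direction, 4.35% against 9.26% higher and 9.16% lower over all members. They were KEAP1, which holds NRF2 in check, with 20.4 FPKM with PDP against 31.1 FPKM in the control (log2 fold change -0.61, SE 0.26), and the NRF2 target HMOX1, heme oxygenase, with 20.2 FPKM with PDP against 12.3 FPKM in the control (log2 fold change 0.71, SE 0.24). In the BCL2 family 3 of 18 were called higher (16.7%) and 2 lower (11.1%). The survival gene MCL1 fell, with 62.1 FPKM with PDP against 101 FPKM in the control (log2 fold change -0.70, SE 0.20). The death gene BMF rose, with 4.84 FPKM with PDP against 1.50 FPKM in the control (log2 fold change 1.69, SE 0.73). The autophagy regulator TFEB had 4.15 FPKM with PDP against 1.42 FPKM in the control (log2 fold change 1.54, SE 0.80). It was the one higher call in its list beside 2 lower among 35 (2.86% and 5.71%, against 9.26% and 9.16% of all members).

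Factors that bind G-rich promoter boxes had more lower than higher calls. Of 20 measured, 6 were called lower and 1 higher, with a median of -0.31 (-0.20 relative to level). PATZ1, a zinc finger protein, had 12.9 FPKM with PDP against 26.3 FPKM in the control (log2 fold change -1.03, SE 0.24), WT1 4.21 FPKM with PDP against 7.14 FPKM in the control (log2 fold change -0.76, SE 0.31) and SP2 6.95 FPKM with PDP against 11.0 FPKM in the control (log2 fold change -0.66, SE 0.31), and the call in the other direction was KLF9, with a log2 fold change of 1.16 (SE 0.21). Helicases that unwind G-quadruplexes had 2 lower and no higher calls among 16, DDX5 and BRIP1. The median of these helicases was -0.21 (-0.04 relative to level), so the list lay near genes of like level. Of all members 9.16% were called lower, and 14.4% in the fourth of the 5 groups by level, where the list's median of 24.0 FPKM lies. In the MYC and MAX network 4 of 13 were called higher and 1 lower. The median was -0.02 (-0.04 relative to level), with 6 members above 0 and 7 below. MYCL, a MYC relative, had 5.56 FPKM with PDP against 2.12 FPKM in the control (log2 fold change 1.39, SE 0.58). MLXIPL, the glucose sensor ChREBP, had 15.3 FPKM with PDP against 8.11 FPKM in the control (log2 fold change 0.92, SE 0.37). MXI1 had 37.9 FPKM with PDP against 24.7 FPKM in the control (log2 fold change 0.62, SE 0.22). MGA, a repressor that pairs with MAX, had 11.4 FPKM with PDP against 18.3 FPKM in the control (log2 fold change -0.68, SE 0.32).

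Over all 63 lists, 7 held only higher calls, 27 only lower calls, 28 both, and 1 none. Medians were below 0 in 48 lists, and relative to genes of like level in 40. Some genes stand in several lists, so the lists are not independent.

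**Figure D3:**
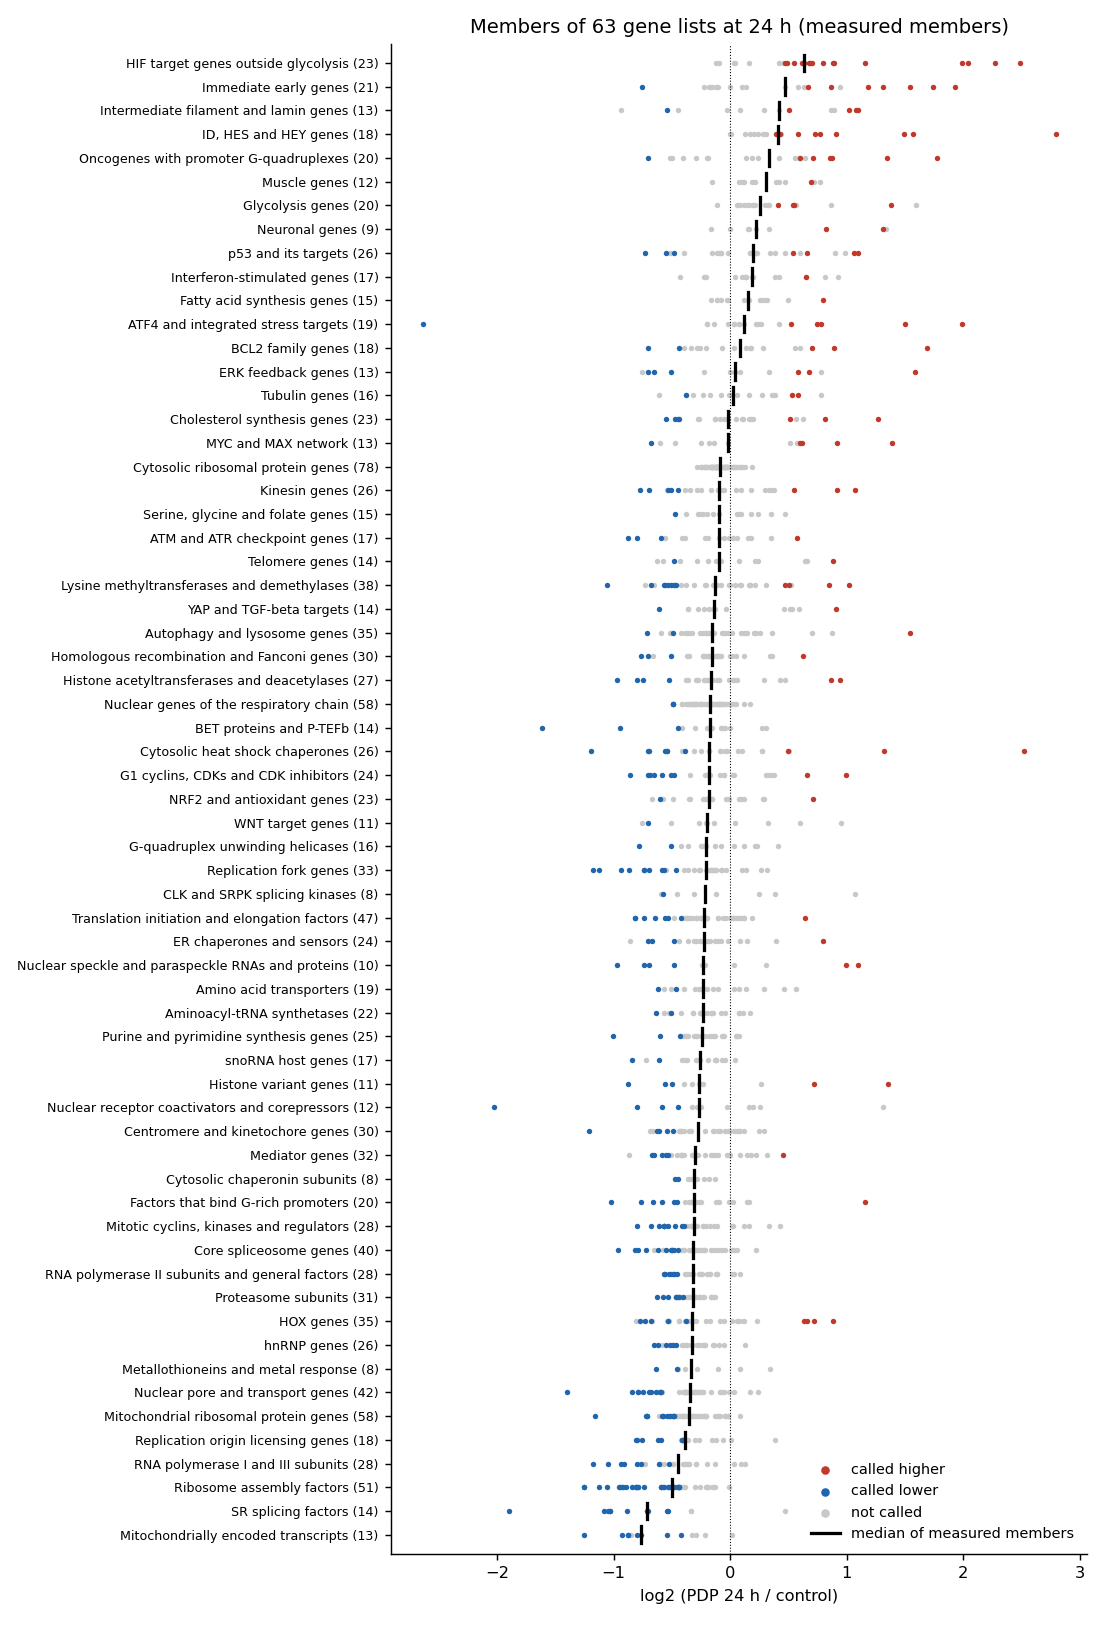
Each row is 1 of 63 gene lists with its number of measured members in parentheses, sorted by median, and each point is the log2 ratio of PDP at 24 h to control of a member. Red and blue points are called higher and lower in the authors' deposited table, grey points are not called, and black ticks are medians, which run from 0.63 for HIF targets to -0.76 for mitochondrially encoded transcripts.

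Oncogenes with known promoter G-quadruplexes were followed to their sequences. Of 20 measured genes in that list, 6 were called higher and 1 lower, with a median of 0.33 (0.27 relative to level). MYB, a transcription factor of progenitor cells, had 4.52 FPKM with PDP against 1.32 FPKM in the control (log2 fold change 1.78, SE 0.49). PDGFA, a growth factor, had 4.84 FPKM with PDP against 1.90 FPKM in the control (log2 fold change 1.35, SE 0.42), and KIT, a receptor tyrosine kinase, 10.2 FPKM with PDP against 5.57 FPKM in the control (log2 fold change 0.87, SE 0.25). SRC, a kinase, had 13.5 FPKM with PDP against 7.46 FPKM in the control (log2 fold change 0.86, SE 0.37). MYC had 425 FPKM with PDP against 281 FPKM in the control (log2 fold change 0.60, SE 0.22), and the lower call was CCND1, cyclin D1, with 34.7 FPKM with PDP against 56.6 FPKM in the control (log2 fold change -0.71, SE 0.28). The 250 bases before the start of transcription are shown for 3 of these and for ANKRD37, SRSF6 and NCOA5, chosen after their values were seen. The 3 oncogenes come from a list made for known promoter G-quadruplexes, while SRSF6 and NCOA5 do not, and CCND1 is not shown. A motif in the 3 was thus likely from the choice of list. The windows are examples and cannot show a difference between genes that rose and fell. The sequences are from RefSeq on GRCh38.p14, in the direction of transcription. Capitals mark matches to a motif of 4 runs of at least 3 G with 1 to 7 bases between runs, or the same with C, which is the motif on the other strand.
PDGFA, chr7:519847-520096, minus strand: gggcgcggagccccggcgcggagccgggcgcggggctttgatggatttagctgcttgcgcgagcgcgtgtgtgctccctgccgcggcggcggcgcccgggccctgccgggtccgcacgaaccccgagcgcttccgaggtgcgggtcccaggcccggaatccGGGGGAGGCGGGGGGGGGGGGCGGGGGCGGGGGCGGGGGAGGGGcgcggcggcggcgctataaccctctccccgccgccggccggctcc
KIT, chr4:54657707-54657956, plus strand: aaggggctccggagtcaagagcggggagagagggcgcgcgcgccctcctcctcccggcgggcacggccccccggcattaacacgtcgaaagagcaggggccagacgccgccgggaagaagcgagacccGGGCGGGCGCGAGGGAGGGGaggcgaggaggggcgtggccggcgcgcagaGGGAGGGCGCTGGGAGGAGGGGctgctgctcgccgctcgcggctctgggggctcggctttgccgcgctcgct
MYB, chr6:135181058-135181307, plus strand: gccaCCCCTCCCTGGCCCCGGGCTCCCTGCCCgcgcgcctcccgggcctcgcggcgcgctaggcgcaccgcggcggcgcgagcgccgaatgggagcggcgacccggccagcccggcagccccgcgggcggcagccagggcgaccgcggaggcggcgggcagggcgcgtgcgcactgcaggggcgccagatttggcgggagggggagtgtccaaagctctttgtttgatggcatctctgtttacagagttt
ANKRD37, chr4:185396591-185396840, plus strand: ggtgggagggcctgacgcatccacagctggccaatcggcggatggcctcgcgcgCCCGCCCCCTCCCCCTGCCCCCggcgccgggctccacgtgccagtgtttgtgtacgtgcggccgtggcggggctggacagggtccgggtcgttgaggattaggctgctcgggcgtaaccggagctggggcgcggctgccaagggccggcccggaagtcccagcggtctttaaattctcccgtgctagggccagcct
SRSF6, chr20:43457646-43457895, plus strand: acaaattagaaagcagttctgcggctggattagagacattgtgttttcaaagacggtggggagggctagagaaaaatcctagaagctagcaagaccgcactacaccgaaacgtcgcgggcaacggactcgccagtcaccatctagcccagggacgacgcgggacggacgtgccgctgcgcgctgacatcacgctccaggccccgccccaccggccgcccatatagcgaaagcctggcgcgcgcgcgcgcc
NCOA5, chr20:46089963-46090212, minus strand: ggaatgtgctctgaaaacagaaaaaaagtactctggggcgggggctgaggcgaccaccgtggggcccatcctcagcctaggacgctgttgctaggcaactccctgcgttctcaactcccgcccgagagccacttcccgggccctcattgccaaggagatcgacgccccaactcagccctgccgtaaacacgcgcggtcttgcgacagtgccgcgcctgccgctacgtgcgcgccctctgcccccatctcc
The windows of PDGFA and KIT hold the motif on the coding strand and those of MYB and ANKRD37 on the other. The windows of SRSF6 and NCOA5, which both fell, hold none. Over 300 bases their GC was 62.7% and 66.3%, near the 65.3% that divides the lower from the upper GC groups of matched members. PDGFA, KIT, MYB and ANKRD37 had 81.7%, 74.3%, 71.0% and 69.7%, so the windows with the motif were also the richer in G and C. PDGFA has 4 windows in the table, and the one shown is that with the motif on its coding strand. No pull-down peak lay within 1 kb of any of these starts.

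The same search was run over all members. Of 10340 members matched to a promoter, 42.5% had the motif in at least 1 window of 300 bases (250 before and 50 after a start), and the motif was in 25.0% of all 35116 windows in the table. Among genes called higher at 24 h, 58.6% (510 of 870) had the motif, among genes called lower 35.3% (366 of 1036), and among genes not called 41.7% (3514 of 8434). Read the other way, genes with the motif were called higher for 11.6% and lower for 8.34%, with a median log2 fold change of 0.03, and genes without it for 6.05% and 11.3%, with a median of -0.12. The share was thus highest in genes called higher and lowest in genes called lower. Genes are not independent replicates, and no test was made of these shares. A match is a string of letters, not a shown structure, and runs of this kind also hold boxes bound by SP1 (GGGCGG), which were not searched for.

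Level and base composition were looked at because both go with the motif and with the change. In 4 equal groups of members by FPKM, the motif shares of genes called higher and called lower were 58.0% against 41.7% in the lowest group, 63.2% against 36.5%, 52.3% against 35.5%, and 51.2% against 33.8% in the highest. In 4 equal groups by promoter GC the shares were 33.3% against 15.3% in the lowest, 52.8% against 26.7%, 60.3% against 46.5%, and 76.6% against 59.6% in the highest. Median GC was 67.1% in promoters of genes called higher and 64.7% in those of genes called lower. Genes with a single window in the table gave 51.6% against 27.9%. Genes called higher had the larger share of the pair in all 8 groups. Genes called lower were not below genes not called in the lowest FPKM group (41.7% against 41.3%) or in the third GC group (46.5% against 46.4%).

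**Figure D4:**
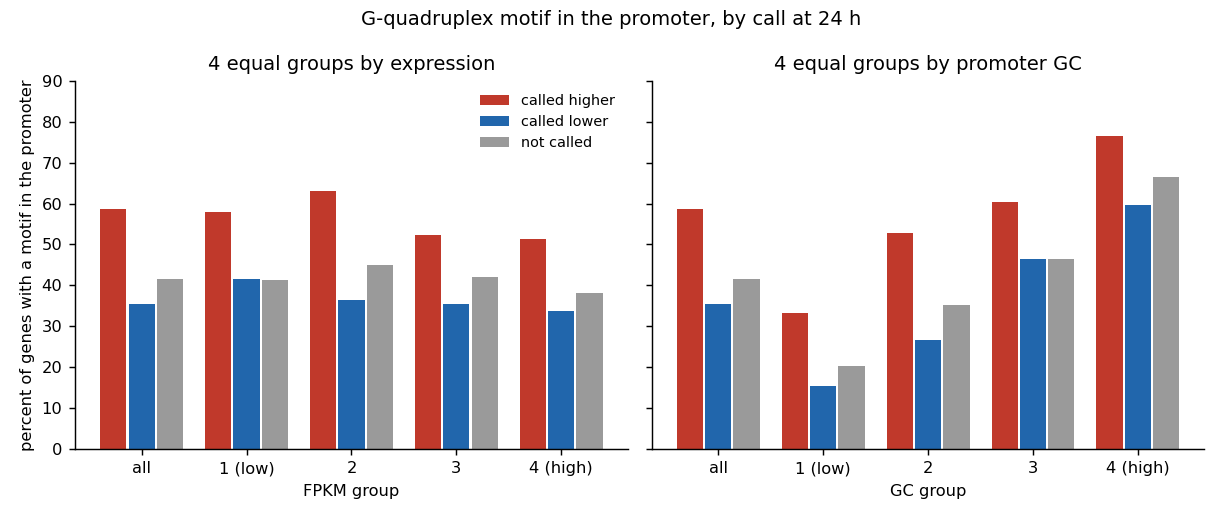
Bars show the percent of genes with the G-quadruplex motif in a promoter window, for genes called higher (red), called lower (blue) and not called (grey) at 24 h in the authors' deposited table. The panels show all matched genes beside 4 equal groups by FPKM (left) and by promoter GC (right), and the red bar is above the blue one in each group.

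The same classes of promoter were compared at the other times, with the shared control. With PDP at 3 h, median log2 fold changes were 0.00 for genes with the motif and -0.02 for genes without it. With PDP at 72 h, 23.6% of genes with the motif and 17.3% of genes without it were called higher, and 11.9% and 16.9% lower, against 20.1% and 13.7% of all genes at that time. Against the 42.5% of all matched members, the motif was found in 2 of 12 matched SR genes, 6 of 62 ribosomal protein genes, 14 of 43 ribosome assembly genes, 8 of 19 HIF targets, 14 of 20 glycolytic genes and 11 of 15 genes of the ID, HES and HEY list. It was also in 12 of 18 factors that bind G-rich promoters and 21 of 35 lysine methyltransferases and demethylases, lists with more lower than higher calls. These lists were picked from 63 and no test was made.

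The pull-down reads the DNA itself, from annealed genomic DNA of untreated cells. A peak lay inside a promoter window of 0.690% of genes called higher (6 of 870), 0.290% of genes called lower (3 of 1036) and 0.628% of genes not called (53 of 8434). Within 1 kb of a start the shares were 5.75% (50 genes), 2.03% (21 genes) and 4.46% (376 genes). Peaks near starts were few in every class, and most genes that rose with PDP at 24 h had none within 1 kb.

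Some genes had 24 h values unlike those at the other times. SFPQ fell to 164 FPKM with PDP at 24 h, while it had 308 FPKM with PDP at 3 h and 319 FPKM at 72 h, close to the control of the 72 h table (299.8 FPKM). EIF4G2, CREBBP and the RNA helicase gene DDX5 (237 FPKM with PDP at 24 h and 408 FPKM in the control) had the same course, with 367, 18.1 and 393 FPKM with PDP at 72 h against 326, 16.5 and 380.1 FPKM in its control. None of these 4 was called at 3 h or 72 h in the authors' deposited tables. IL4R, highest at 24 h, had 4.80 FPKM at 72 h against 2.57 in the control. H2AFX, a histone variant of DNA damage signalling, and CLK1, a kinase of SR proteins, were called lower at 24 h (32.3 against 59.2 FPKM and 23.5 against 35.0 FPKM, with PDP and in the control) and higher at 72 h (82.4 against 55.3 and 77.0 against 32.6 FPKM). A second set kept its direction. SRSF6 had 38.6 FPKM with PDP at 72 h against 183 in the control, NCOA5 2.31 against 33.5, MEPCE 12.9 against 56.1, NXF1 24.6 against 54.9 and RRS1 9.82 against 47.7. At 3 h, with PDP and in the control, SRSF6 had 187 and 189 FPKM and NCOA5 35.4 and 34.6 FPKM, so their values at 3 h lay close to the control. Whether 24 h and 72 h values of a gene differ was not tested, since no deposited test compares them.

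**Figure D5:**
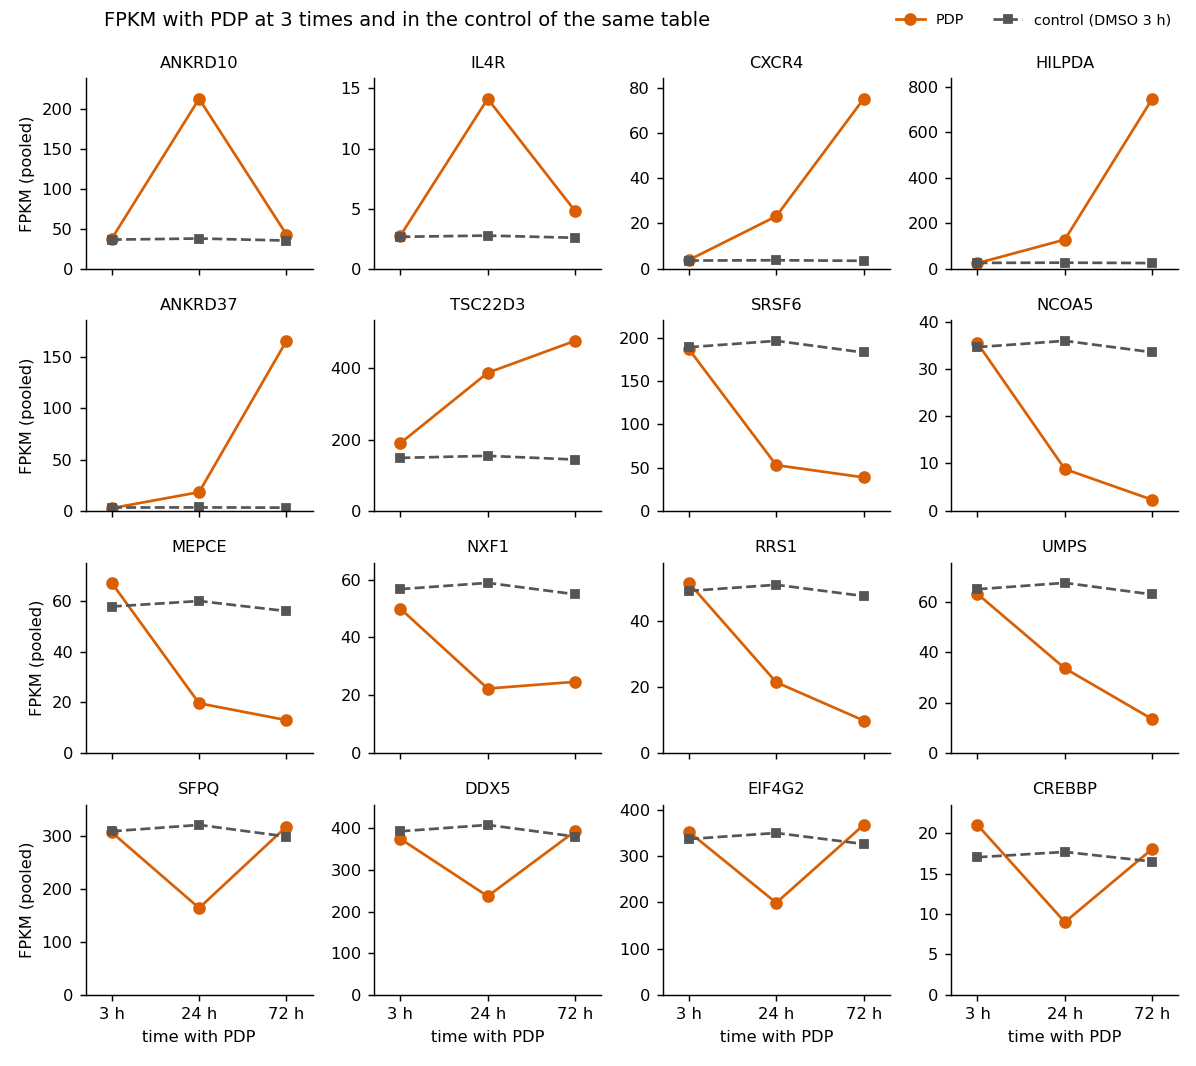
Pooled FPKM of 16 genes, chosen after their values were seen, with PDP at 3 h, 24 h and 72 h (orange circles) and in the DMSO control as scaled in the table of the same time (grey squares, dashed). ANKRD10 peaks at 24 h (213 FPKM), SRSF6 and NCOA5 stay low at 72 h, and SFPQ, DDX5, EIF4G2 and CREBBP are low at 24 h alone.

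Classes of gene are given last. The 265 pseudogenes without a transcribed annotation had a median log2 fold change of 0.78, and 20.8% were called higher, among them RPL3P4 (105 FPKM with PDP at 24 h and 22.5 FPKM in the control), and their reads may come from parent genes, which was not tested. Long noncoding RNA genes had a median of 0.33 (574 genes), and protein-coding genes -0.05 (11997 genes). The classes differed in level, with median FPKM of 3.42 for these pseudogenes, 2.67 for long noncoding RNA and 15.1 for protein-coding genes. All members of the lowest of the 5 groups by level had a median of 0.43, with 16.4% called higher. Of long noncoding RNA genes 8.89% were called higher, against 9.26% of all members. In loci of up to 10 kb 16.5% of genes were called higher and 13.2% lower, and in loci over 100 kb 7.68% and 4.92%. Loci are those of the deposited table and can span several genes.

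Precision varied with level and with the test. Of the called genes 828 had the smallest p-value of the authors' deposited table, 5e-05, which gives a q of 0.000908, so they cannot be ranked by it. At an unadjusted p-value under 0.05, 4168 members differed. For 3 called genes the implied SE was larger than the log2 fold change, so SE and p-value need not measure the same spread.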

How the data were processed

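RNA libraries were made from poly(A) RNA with a stranded kit, per the labels' protocols. HISAT2 2.0.5, Cufflinks 2.2.1, Trim Galore 0.4.4, Bowtie2 2.2.9, HOMER 4.9.1, SAMtools 1.3.1, Picard and GRCh38.p7 are listed in the submitters' processing notes, and their settings are not given in the sources used here. The deposited FPKM values are pooled over 2 libraries per condition by the authors, who also deposited the p-value and q-value of their test. The test statistic, a score in the authors' deposited table, was used to derive SE as log2 fold change over statistic. The score of the deposited peak list was used to take the peaks at or above the median score, of 51446. Depth per library is unknown.

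From these, log2 fold changes were computed with no pseudocount. The members and lists were chosen with earlier results of these data known. Named genes were the 12 largest called increases and decreases that reached 5 FPKM, the 6 largest gains and losses in FPKM, and up to 4 called members per list (2 of highest FPKM where none was called). MYC, CCND1 and SRF were named after their values were seen. Of 58083 IDs 56980 had a current symbol, 40185 matched RefSeq by symbol or synonym on the same chromosome, and 28 symbols turned into dates were restored. Promoters and peaks were compared on their primary chromosomes with an overlap of at least 1 base. Some items are not reported here. Steps were tested on simulated data. Other settings tried were q under 0.01, a log2 change of 1, other FPKM minimums, a pseudocount of 1, means, equal FPKM sums, protein-coding genes, other windows and the stronger peaks, and, added after seeing the data, level-relative medians, other bins, single windows and loops of 1 to 3 bases. Versions were Matplotlib 3.10.9, NumPy 2.4.6, pandas 2.3.3, Python 3.11.15 and SciPy 1.17.1.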

Additional observations from a re-analysis of the deposited data

How the results depend on the processing

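No paired analysis was possible because each condition has 1 value pooled over its libraries, and for the same reason no library could be left out. At a q under 0.01, 730 genes were called higher and 729 lower. With a log2 change of at least 1 there were 606 and 145, and with an FPKM minimum of 5 there were 664 and 1192. At the stricter q, lower calls fell to 18 among ribosome assembly genes, 4 in the core spliceosome, 0 among RNA polymerase II genes, 2 in Mediator, 5 among mitochondrially encoded transcripts, 6 among mitochondrial ribosomal proteins, 2 in the proteasome, 5 in licensing, 4 among G1 cyclins and inhibitors, 4 among mitotic regulators, 2 among kinesins, 2 among factors that bind G-rich promoters, 2 among lysine methyltransferases and demethylases and 0 among HOX genes. Higher calls of ATF4 targets fell to 2. Motif shares for genes called higher, called lower and not called were 51.6%, 27.9% and 34.2% with a single window, and 26.0%, 13.1% and 18.9% with loops of 1 to 3 bases. Peaks within 1 kb were at 5.75%, 2.03% and 4.46%. No median of a list moved by more than the median SE of its single genes under any alternative run. That SE is not the error of a list median. The smallest was 0.20, so equal FPKM sums, which add 0.17 to every list, could not exceed it. Equal FPKM sums turned 12 list medians above 0, among them ribosomal proteins and cholesterol synthesis, and level-relative values turned 9 above 0 and 1, ERK feedback, below. Means turned 3 above 0 (MYC and MAX, cholesterol synthesis, YAP and TGF-beta targets), and an FPKM minimum of 5 turned the BCL2 family and ERK feedback below 0. For single called genes, a pseudocount of 1 in both conditions cannot change a sign. Equal FPKM sums add 0.17, less than the size of the smallest called decrease (-0.36), so they cannot either.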
